A study of Mus musculus with 19 samples.

Results

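Intracisternal A particles (IAPs) are LTR retrotransposons of the mouse, and the 4 IAP consensus sequences described here, IAPEz-int, IAPLTR1_Mm, IAPLTR1a_Mm and IAPA_MM, were chosen by name from the 259 retrotransposon subfamilies listed in each library. The names were matched exactly, so the other 21 subfamilies whose names begin with IAP were left out and serve only for comparison. The libraries are mRNA-seq of spermatogonia from testes at postnatal day 7 (P7), sorted by FACS for EpCAM, a surface protein of these cells. They came from 2 wild-type, 3 heterozygous and 3 KO mice of a *Dnmt3l* line and from 3 wild-type, 3 heterozygous and 5 KO mice of a *Pld6* line. The KO mice were homozygous, and no transgene, Cre or treatment is named in the labels. Both lines were backcrossed to C57BL/6J, both had wild-type mice of their own, and the 11 wild-type and heterozygous libraries are called controls here.

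An IAP copy has an internal region, which encodes the retroviral *gag*, *pro* and *pol* genes, between a pair of long terminal repeats (LTRs). Transcription starts in the 5′ LTR and ends in the 3′ LTR, so that the RNA of a full-length copy carries LTR sequence at both ends. DNA methylation takes part in silencing IAPs in male germ cells. The paper reports that LTRs flanking an internal region were highly methylated in primordial germ cells and in *Dnmt3l* KO spermatogonia. LTRs without an internal region had low methylation in both. Across the genome, methylation is erased in primordial germ cells and laid down *de novo* in fetal prospermatogonia. DNMT3L is the catalytically inactive partner that the *de novo* DNA methyltransferases need in these cells. PLD6 is a protein of the outer mitochondrial membrane that takes part in making piRNAs, the small RNAs that guide silencing to retrotransposons. Of the 4 sequences, IAPEz-int is the internal region of the young IAPEz elements, IAPLTR1_Mm is the LTR that belongs with it, and IAPLTR1a_Mm is a related LTR variant. IAPA_MM is a further IAP consensus, and the sources used here do not say which region it covers.

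The values are RPM, the reads mapped to a consensus sequence scaled to the mapped total. All 4 sequences were above 0 in every library and all 4 passed the filter on low values, which asked for 2 or more libraries with an RPM of 1 or more. The read depth is unknown, so no counting interval is given. RPM is not divided by length, so levels of different sequences were not ranked against each other. Ratios between them, and shares of a summed RPM, were compared only from library to library. A read that matches several similar consensus sequences may have been counted at any of them, so the 4 values of a library are not independent. In such bulk samples fewer expressing cells and less RNA per cell cannot be told apart. The data cover retrotransposons alone, so the transcripts of *Dnmt3l* and *Pld6*, the spermatogonial markers and the markers of other testis cells were not checked here. The summed RPM of the 259 subfamilies was between 2103 and 4413 in the controls, between 7178 and 8426 in *Pld6* KO and between 12659 and 14603 in *Dnmt3l* KO libraries. *Pld6* heterozygous replicate 1 listed 159 subfamilies at 0, against 60 to 90 in every other library.

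All 4 IAP sequences were up-regulated in both mutants, and more so in *Dnmt3l* KO than in *Pld6* KO spermatogonia. In the plot of RPM by library, the 5 *Pld6* KO libraries lie above all 11 controls and the 3 *Dnmt3l* KO libraries lie above all 5 *Pld6* KO libraries for each sequence. Within a line the ranges of the heterozygous and the wild-type libraries overlap, except for IAPA_MM in the *Dnmt3l* line, where the heterozygous libraries lie just above the wild-type ones. The share of all tested subfamilies separated in this way was not counted, and no difference is read from this gap between such small groups.

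**Figure D1:**
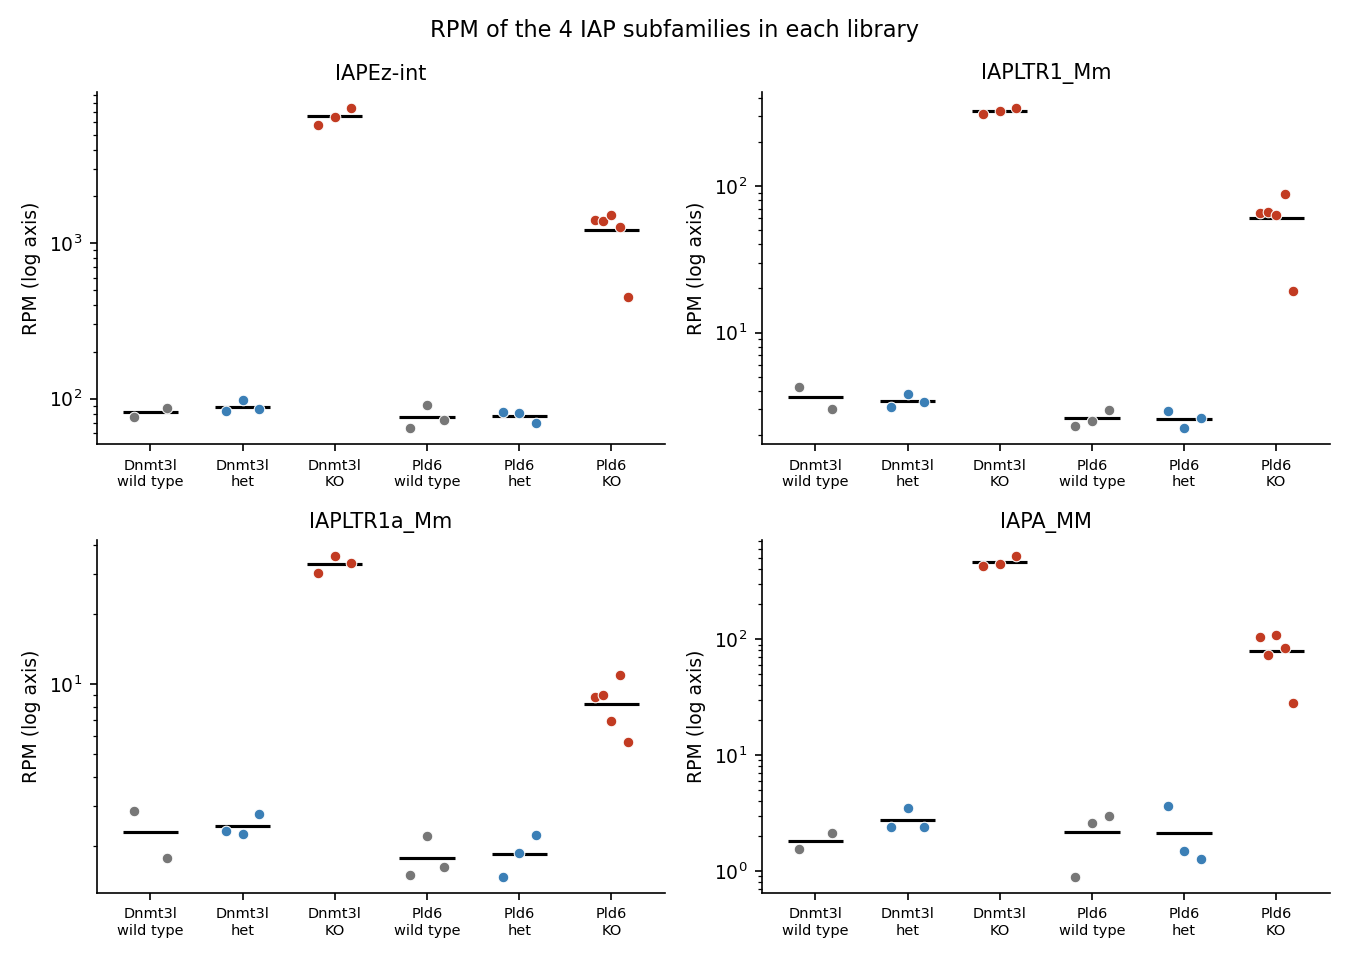
RPM of IAPEz-int, IAPLTR1_Mm, IAPLTR1a_Mm and IAPA_MM in each of the 19 libraries, by genotype, on log axes. Each point is 1 library and each bar the arithmetic mean of its group, and for each of the 4 sequences the controls, the *Pld6* KO and the *Dnmt3l* KO libraries form 3 ranges that do not overlap, with *Pld6* KO replicate 5 (the rightmost point of its group) lowest of the *Pld6* KO libraries.

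IAPEz-int, the coding region of the element, had 64.3, 90.7 and 72.8 RPM in the 3 *Pld6* wild-type libraries and 81.9, 80.2 and 69.8 RPM in the heterozygous ones. In the 5 *Pld6* KO libraries it had 1409, 1380, 1523, 1272 and 448 RPM. Replicate 5 stood apart from the other 4 KO libraries, but it was still 4.56 times the highest control. The group means were 75.9 ± 13.5 RPM in wild type (SD, n = 3) and 1206 ± 434 RPM in KO (SD, n = 5). The log2 fold change of RPM + 1 was 3.87 (standard error 0.29, limma with Benjamini-Hochberg adjustment over 114 subfamilies, adjusted p = 2.1e-09).

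In the *Dnmt3l* line, IAPEz-int had 76.5 and 86.5 RPM in wild type and 82.6, 98.3 and 85.3 RPM in heterozygous libraries. It had 5748, 6484 and 7410 RPM in the KO libraries. The lowest of these was 58.5 times the highest control and 3.77 times the highest *Pld6* KO library. The KO mean was 6547 ± 833 RPM (SD, n = 3) against 81.5 ± 7.12 RPM in wild type (SD, n = 2). The log2 fold change was 6.31 (standard error 0.37, limma adjusted p = 9.3e-11).

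IAPLTR1_Mm, the LTR that carries the promoter of these elements, had a low RPM in controls, with 2.31, 2.51 and 2.96 RPM in *Pld6* wild type and 2.92, 2.22 and 2.62 RPM in *Pld6* heterozygous libraries. In *Pld6* KO it had 65.7, 66.7, 63.1, 87.4 and 19.2 RPM. As for IAPEz-int, replicate 5 was the lowest KO library and lay above every control, by 4.51 times over the highest. The log2 fold change was 3.95 (standard error 0.31, limma adjusted p = 3.2e-09). *Dnmt3l* wild-type libraries had 4.26 and 3.02 RPM of IAPLTR1_Mm, heterozygous libraries 3.09, 3.82 and 3.37 RPM, and KO libraries 308, 322 and 340 RPM. These 3 KO libraries were the closest together of any KO group described here, with a coefficient of variation of 4.97%. For *Dnmt3l* KO the log2 fold change of IAPLTR1_Mm was 6.14 (standard error 0.39, limma adjusted p = 1.7e-10).

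IAPLTR1a_Mm, the variant LTR, changed least of the 4 on this scale. It had 1.51, 2.22 and 1.63 RPM in *Pld6* wild type, 1.48, 1.88 and 2.23 RPM in *Pld6* heterozygous libraries and 8.79, 8.98, 6.97, 10.9 and 5.64 RPM in *Pld6* KO. Replicate 5 was again the lowest KO library, at 1.98 times the highest control. The log2 fold change was 1.71 (standard error 0.20, limma adjusted p = 5.0e-07), a figure that is held down by the pseudocount of 1 at such low RPM. In the *Dnmt3l* line IAPLTR1a_Mm had 2.85 and 1.78 RPM in wild type, 2.32, 2.27 and 2.75 RPM in heterozygous and 30.02, 35.56 and 33.22 RPM in KO libraries. There the lowest KO library was 10.5 times the highest control, and the log2 fold change was 3.37 (standard error 0.25, limma adjusted p = 1.2e-09).

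IAPA_MM had the largest log2 fold change of the 4 in both mutants. It had 0.89, 2.61 and 2.96 RPM in *Pld6* wild type, 3.62, 1.48 and 1.26 RPM in *Pld6* heterozygous libraries and 105, 72.7, 109, 84.2 and 28.3 RPM in *Pld6* KO. The lowest KO library, replicate 5, was 7.83 times the highest control, the widest gap of the 4 sequences in this mutant. The log2 fold change was 4.62 (standard error 0.36, limma adjusted p = 2.2e-09). In the *Dnmt3l* line IAPA_MM had 1.53 and 2.12 RPM in wild type, 2.41, 3.52 and 2.40 RPM in heterozygous and 426, 451 and 519 RPM in KO libraries. The lowest of these was 118 times the highest control. Its log2 fold change of 7.37 (standard error 0.45, limma adjusted p = 9.3e-11) ranked first of the 114 tested subfamilies.

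All 4 sequences passed the threshold of 0.05 as higher in *Pld6* KO, where 30.7% of the 114 tested subfamilies did. All 4 also passed as higher in *Dnmt3l* KO, where 38.6% of the tested subfamilies did. Their median log2 fold change was 3.91 in *Pld6* KO and 6.22 in *Dnmt3l* KO, beside medians of 0.26 and 0.50 over all tested subfamilies. In order of log2 fold change they ranked 3 (IAPA_MM), 4 (IAPLTR1_Mm), 5 (IAPEz-int) and 18 (IAPLTR1a_Mm) of 114 in *Pld6* KO. In *Dnmt3l* KO the ranks were 1 (IAPA_MM), 2 (IAPEz-int), 3 (IAPLTR1_Mm) and 9 (IAPLTR1a_Mm). Every *Pld6* KO library was above every control for 4 of 4 sequences, as for 30.7% of the tested subfamilies, and every *Dnmt3l* KO library was so for 4 of 4, as for 50.9% of them. Scaling of the libraries by median ratios, over 33 subfamilies with an RPM of 5 or more in all of them, lowered the median of the tested subfamilies to -0.14 in *Pld6* KO and to -0.02 in *Dnmt3l* KO. With this scaling the calls over all tested subfamilies were 29 higher and 16 lower in *Pld6* KO, against 35 and 0 without it, and 27 higher and 9 lower in *Dnmt3l* KO, against 44 and 2. The 4 IAP sequences stayed past the threshold in both, with log2 fold changes from 1.32 (IAPLTR1a_Mm) to 4.20 (IAPA_MM) in *Pld6* KO and from 2.78 (IAPLTR1a_Mm) to 6.78 (IAPA_MM) in *Dnmt3l* KO.

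The other IAP subfamilies moved less uniformly. Of the 16 that reached the RPM minimum, out of 21 listed, 11 passed as higher in *Pld6* KO and 10 in *Dnmt3l* KO, with none lower in either. Their median log2 fold changes were 1.54 and 1.47, and the largest were 3.14 and 4.87. In the plot of both changes, the 4 sequences lie above the line of equal change, while the other IAP subfamilies lie on both sides of it.

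**Figure D2:**
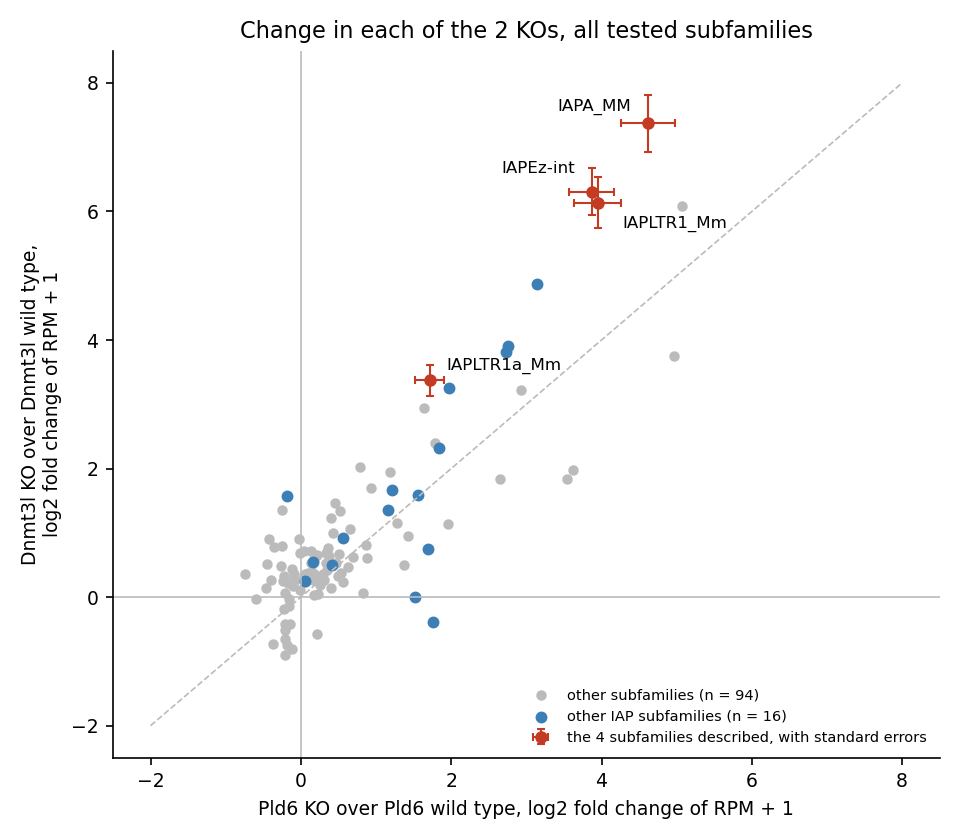
Log2 fold change of RPM + 1 in *Pld6* KO over *Pld6* wild type (x axis) and in *Dnmt3l* KO over *Dnmt3l* wild type (y axis) for the 114 tested subfamilies. Red points are the 4 IAP sequences with limma standard errors, blue points the 16 other IAP subfamilies, grey points the rest, and the dashed line marks equal change. IAPA_MM lies at 4.62 and 7.37, and IAPLTR1a_Mm at 1.71 and 3.37.

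Whether the mutants differed was tested in the same fit, with each KO set against the wild type of its own line. The change in *Dnmt3l* KO exceeded that in *Pld6* KO by 2.75 on the log2 scale for IAPA_MM (standard error 0.57, limma adjusted p = 0.00305), by 2.44 for IAPEz-int (standard error 0.47, adjusted p = 0.00181), by 2.19 for IAPLTR1_Mm (standard error 0.50, adjusted p = 0.00538) and by 1.66 for IAPLTR1a_Mm (standard error 0.32, adjusted p = 0.00181). Thus all 4 passed as having the larger change in *Dnmt3l* KO, where 7.89% of the tested subfamilies did. Of the 16 other IAP subfamilies, 1 passed in this direction and 2 in the other, where 4.39% of the tested subfamilies did, with a median difference of 0.38. Without *Dnmt3l* wild-type replicate 2, the difference of IAPLTR1_Mm was 2.00 and missed the threshold (adjusted p = 0.0562, in a range from 2.6e-05 to 0.0562 over all alternatives).

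Set directly against each other, the *Dnmt3l* KO mean was 5.43 times the *Pld6* KO mean for IAPEz-int, 5.35 times for IAPLTR1_Mm, 3.99 times for IAPLTR1a_Mm and 5.82 times for IAPA_MM. The KO groups come from different lines and no controls enter here, so line and genotype cannot be told apart in this comparison. The corresponding log2 differences of RPM + 1 were 2.55, 2.55, 1.90 and 2.66 (limma adjusted p from 8.1e-07 to 1.0e-05). All 4 passed as higher in *Dnmt3l* KO, where 24.6% of the tested subfamilies did. Every *Dnmt3l* KO library was above every *Pld6* KO library for 4 of 4 sequences, as for 31.6% of the tested subfamilies and for 7 of the 16 other IAP subfamilies. The smallest gap between the ranges was that of IAPLTR1a_Mm, at 2.75 times, and the largest that of IAPA_MM, at 3.91 times. With every library kept, the *Dnmt3l* KO libraries also lay closer together, with coefficients of variation from 4.97% (IAPLTR1_Mm) to 12.7% (IAPEz-int). In *Pld6* KO they ran from 24.5% (IAPLTR1a_Mm) to 41.4% (IAPLTR1_Mm), but much of that spread came from replicate 5. Leaving it out cut the SD of IAPEz-int from 434 to 103 RPM, around a mean of 1396 RPM. Relative to the mean, this was narrower than the *Dnmt3l* KO spread of IAPEz-int, 833 around 6547 RPM. The other sequences stayed relatively wider in *Pld6* KO even then. These differences in spread were not tested.

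Loss of a single allele gave no difference past the threshold in any of the 4 sequences. In *Pld6* heterozygous libraries the log2 fold changes against wild type lay between -0.02 (IAPA_MM) and 0.04 (IAPLTR1a_Mm), with 95% intervals that reached from -0.86 to 0.82, both for IAPA_MM. In *Dnmt3l* heterozygous libraries they lay between -0.06 (IAPLTR1_Mm) and 0.41 (IAPA_MM), and the interval of IAPA_MM, the widest, was from -0.52 to 1.35. None of the 4 passed by limma in either line (adjusted p from 0.925 to 0.993 in *Pld6* and from 0.950 to 0.966 in *Dnmt3l*), none had an unadjusted p under 0.05, and 0% of the tested subfamilies passed. The wild types of the 2 lines differed by -0.09 (IAPA_MM) to 0.36 (IAPLTR1_Mm) on the log2 scale, with no call among the 4 (limma adjusted p = 0.991 for each, none with an unadjusted p under 0.05) and 0.877% of the tested subfamilies called. Dividing by the sum of the other retrotransposon families turned this last difference to -0.71 for IAPEz-int, -0.28 for IAPLTR1_Mm and -0.32 for IAPLTR1a_Mm, also without a call. The order of the group means was thus controls, *Pld6* KO and *Dnmt3l* KO for each sequence. Among the 4 control groups, neighbours in that order overlapped in all cases but one, since the *Dnmt3l* heterozygous libraries lay just above the *Pld6* wild-type ones for IAPLTR1_Mm. How often the other tested subfamilies showed such a gap was not counted, and no difference is read from it.

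The ratio of an LTR to the internal region within a library does not depend on how the library was scaled. Measured against IAPEz-int, IAPLTR1_Mm was 1.42 times as high in *Pld6* KO as in wild type, while in *Dnmt3l* KO it lay within the wild-type range. In *Pld6* wild-type libraries the RPM of IAPLTR1_Mm was 3.59%, 2.77% and 4.06% of that of IAPEz-int, and in *Pld6* KO libraries it was 4.66%, 4.83%, 4.15%, 6.87% and 4.29%. The KO values lay just above the wild-type ones, with replicate 4 the highest, and the log2 difference was 0.51 (exact permutation p = 0.0357, two-sided and the lowest possible with 5 mice against 3, and 0.0857 adjusted over the 12 ratio tests). That difference was 0.08 (exact permutation p = 0.75) with a pseudocount of 1 added to both RPM values. In the *Dnmt3l* line the ratio was 5.57% and 3.49% in wild type and 5.35%, 4.97% and 4.58% in KO, so the KO libraries lay between the wild-type ones (log2 difference 0.17, exact permutation p = 0.8). Without *Dnmt3l* wild-type replicate 2 the sign turned, to -0.17, and without replicate 1 it was 0.51. The KO means of the 2 lines were 4.96% ± 1.10 (SD, n = 5) for *Pld6* and 4.97% ± 0.384 (SD, n = 3) for *Dnmt3l* (log2 difference 0.02, exact permutation p = 0.857).

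**Figure D3:**
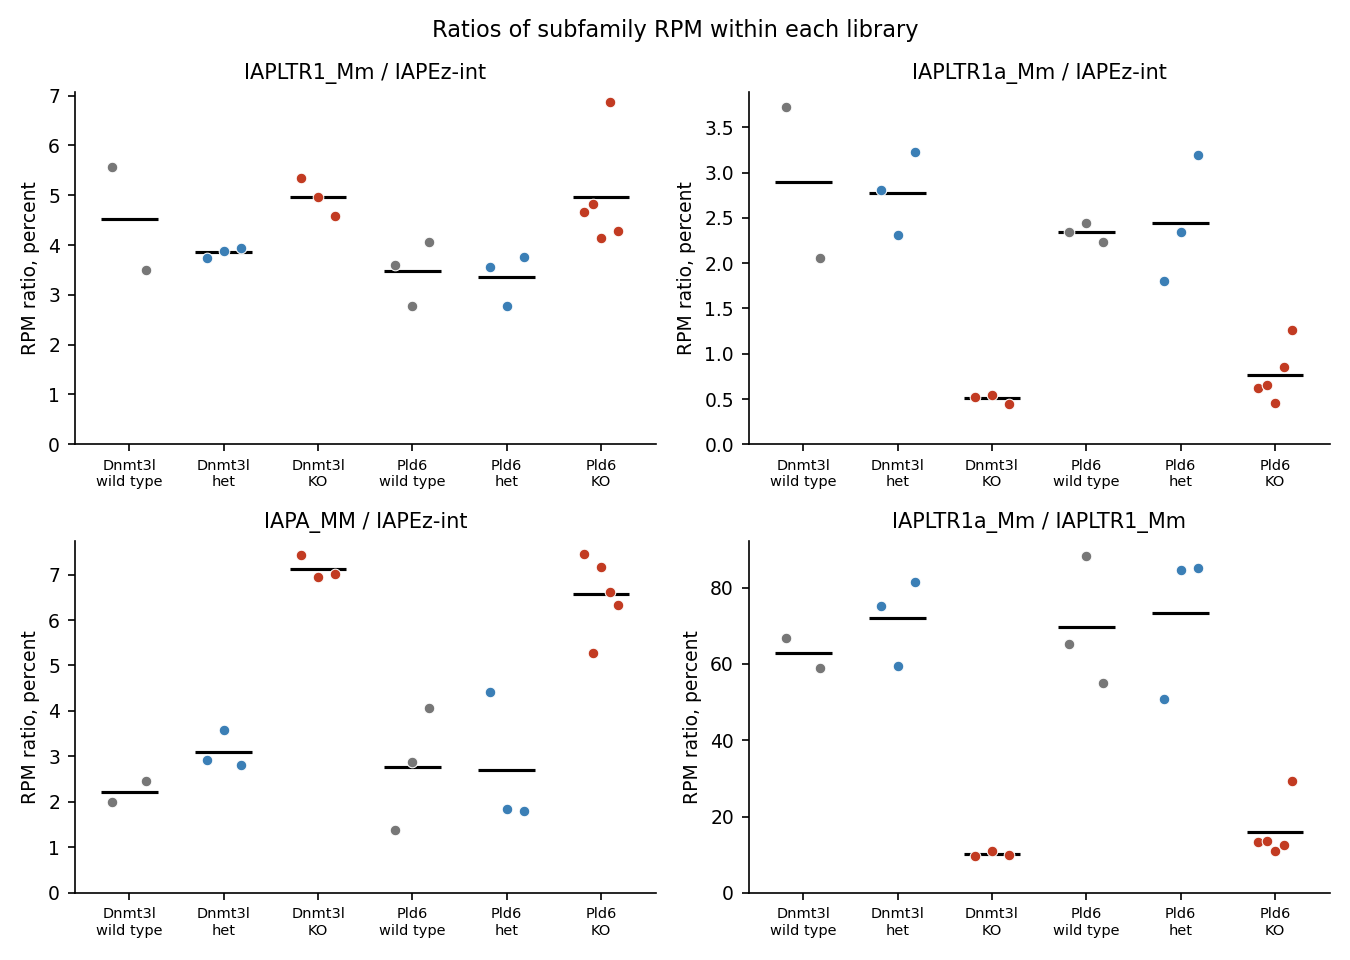
RPM of one sequence as a percentage of the RPM of another in the same library, for 4 pairs, by genotype. Each point is 1 library and each bar the group mean. The IAPLTR1a_Mm percentages of both KO groups lie below all controls, the IAPA_MM percentages lie above them, and the IAPLTR1_Mm percentages of IAPEz-int overlap with those of the *Dnmt3l* controls.

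IAPLTR1a_Mm had a lower ratio to the internal region in every KO library than in any control. In the 11 controls its RPM was 1.81% to 3.73% of that of IAPEz-int, with a median of 2.35%. In *Pld6* KO it was 0.624%, 0.651%, 0.458%, 0.858% and 1.26%, with replicate 5 the highest, and in *Dnmt3l* KO it was 0.522%, 0.548% and 0.448%. The 2 KO groups overlapped with each other and with no control. The ratio in *Pld6* KO was 0.309 times that in wild type (log2 difference -1.69, exact permutation p = 0.0357, adjusted p = 0.0857), and in *Dnmt3l* KO it was 0.182 times that in wild type (log2 difference -2.46, exact permutation p = 0.2, the smallest that 3 mice against 2 allow). Measured against the other LTR, IAPLTR1a_Mm was at 50.7% to 88.4% of IAPLTR1_Mm in the controls. It was at 13.4%, 13.5%, 11.0%, 12.5% and 29.4% in *Pld6* KO and at 9.76%, 11.0% and 9.78% in *Dnmt3l* KO, again with *Pld6* KO replicate 5 highest among the KO libraries. Between the mutants, this last ratio differed by -0.55 on the log2 scale (exact permutation p = 0.0357, adjusted p = 0.0857), and by -0.30 without *Pld6* KO replicate 5, where 3 mice against 4 allow no p below 0.0571.

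IAPA_MM, in contrast, had a higher ratio to the internal region in every KO library than in any control. Its RPM was 1.38% to 4.42% of that of IAPEz-int in the controls, with a median of 2.81%. In *Pld6* KO it was 7.45%, 5.27%, 7.17%, 6.62% and 6.33%, and in *Dnmt3l* KO 7.42%, 6.95% and 7.00%. The lowest KO library was thus close to the highest control, while the medians lay far apart. The log2 difference from wild type was 1.37 in *Pld6* KO (exact permutation p = 0.0357, adjusted p = 0.0857) and 1.69 in *Dnmt3l* KO (exact permutation p = 0.2), and the KO groups differed by 0.13 (exact permutation p = 0.357). With the 6 wild-type and heterozygous mice of the *Pld6* line together as controls, all 4 ratios differed from *Pld6* KO with the smallest exact permutation p that 5 mice against 6 allow, 0.00433 before adjustment.

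The added RNA of the 4 sequences, taken as the RPM of a KO library minus the wild-type mean of its line, was in similar proportions in both mutants. IAPA_MM gained 7.71%, 5.41%, 7.39%, 6.86% and 7.04% of what IAPEz-int gained in the 5 *Pld6* KO libraries, and 7.49%, 7.01% and 7.05% in the 3 *Dnmt3l* KO libraries. For IAPLTR1_Mm these shares were 4.73%, 4.91%, 4.18%, 7.09% and 4.47% in *Pld6* KO and 5.36%, 4.98% and 4.58% in *Dnmt3l* KO. For IAPLTR1a_Mm they were 0.525%, 0.552%, 0.358%, 0.763% and 1.04% in *Pld6* KO and 0.489%, 0.519% and 0.422% in *Dnmt3l* KO. The ranges of the mutants overlapped for each of the 3 sequences. This measure was chosen after the values were seen and was not tested, and it cannot be told apart whether such proportions come from separate transcripts or from reads that fit more than 1 of these sequences.

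IAPEz-int made up a larger share of the retrotransposon RPM in the mutants than in the controls, a share that also depends on the lengths of the sequences. In the 11 controls it held 1.86% to 3.75% of the summed RPM of the 259 subfamilies. It held 45.4%, 50.7% and 50.7% in the *Dnmt3l* KO libraries. Among the *Pld6* KO libraries the share was 18.1%, 17.2%, 18.1%, 17.7% and 6.17%, so 4 of the 5 lay within about a percentage point and replicate 5 was well below them. With the other 3 sequences added, the share was 55.1% ± 3.19 in *Dnmt3l* KO (SD, n = 3) and 17.4% ± 5.87 in *Pld6* KO (SD, n = 5), where the libraries other than replicate 5 lay between 19.03% and 20.40%. Of the net rise in summed RPM over the wild-type mean, the 4 sequences accounted for 72.1% to 79.8% in *Dnmt3l* KO libraries and for 8.73% to 29.1% in *Pld6* KO libraries. Subfamilies that fell in a mutant lower the net rise and so make these shares larger.

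**Figure D4:**
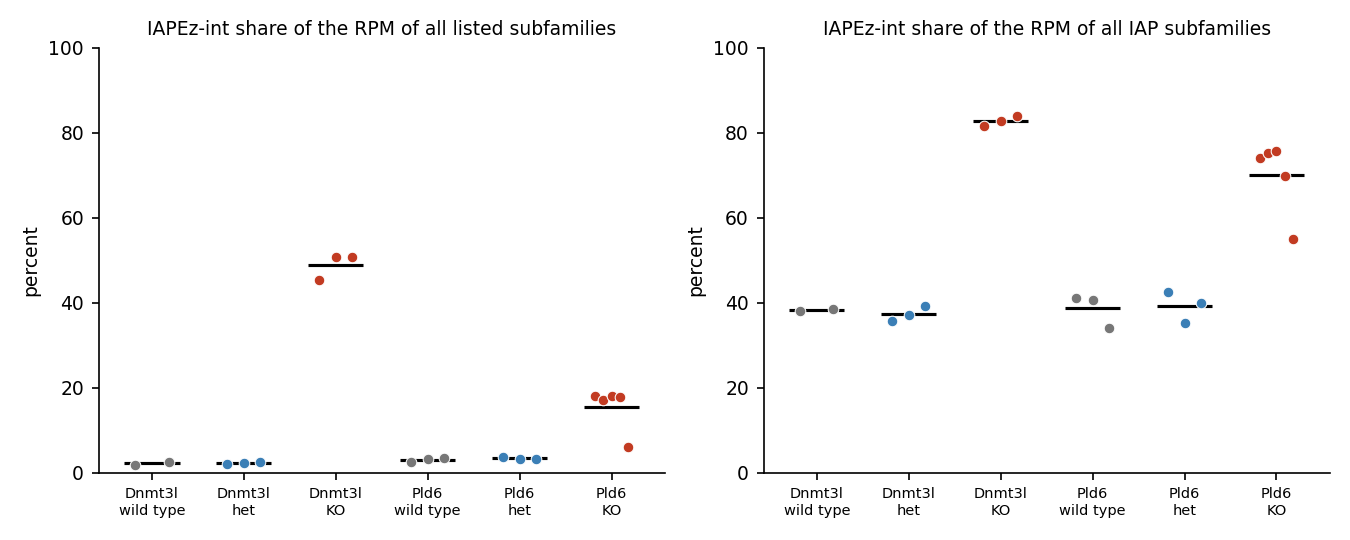
Share of IAPEz-int in the summed RPM of all 259 subfamilies (left) and of the 25 IAP subfamilies (right), in percent, by genotype. Each point is 1 library and each bar the group mean. On the left the *Dnmt3l* KO libraries lie between 45.4% and 50.7%, and *Pld6* KO replicate 5, at 6.17%, lies between the controls and the other *Pld6* KO libraries.

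Within the IAP family the share of IAPEz-int was also higher in both mutants. IAPEz-int held 34.1% to 42.5% of the RPM of the 25 IAP subfamilies in the controls. It held 81.7%, 82.9% and 83.8% in *Dnmt3l* KO and between 55.1% (replicate 5) and 75.8% in *Pld6* KO, with a median of 74.1%. Every KO library was above every control.

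*Pld6* KO replicate 5 had low RPM of the 4 IAP sequences but not of retrotransposons as a whole. Relative to the median of the other 4 *Pld6* KO libraries, it was at 0.290 for IAPLTR1_Mm, 0.300 for IAPA_MM and 0.321 for IAPEz-int, the 3 lowest values of the 114 tested subfamilies, and at 0.635 for IAPLTR1a_Mm, which ranked 11. The median over all tested subfamilies was 1.22. The 16 other IAP subfamilies had a median of 1.02 and ranged from 0.353 to 4.02. In all, 6 of the 114 subfamilies (5.26%) were below 0.5 in this library. Besides the 3 IAP sequences they were IAPLTR2b and IAPLTR3-int, a further IAP LTR and internal region, both at 0.353, and the SINE B2_Mm1a at 0.410, which was named after its value was seen. The LTRs IAPLTR2a, at 0.521, and IAPLTR2_Mm, at 0.573, were also lower than IAPLTR1a_Mm. IAPLTR2b, IAPLTR3-int, IAPLTR2a and IAPLTR2_Mm were picked by their correlation with the 4 sequences over all libraries, this one included. Their low values in this library were thus partly given by that choice. The summed RPM of the library was 7259, within the range of the other 4, and 69 subfamilies were listed at 0 in it, against 73 to 89 in the other 4. Whether any feature of this library bears on its IAP values was not tested. Without it, the log2 fold changes in *Pld6* KO were 4.19 for IAPEz-int, 4.31 for IAPLTR1_Mm, 1.82 for IAPLTR1a_Mm and 4.95 for IAPA_MM.

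**Figure D5:**
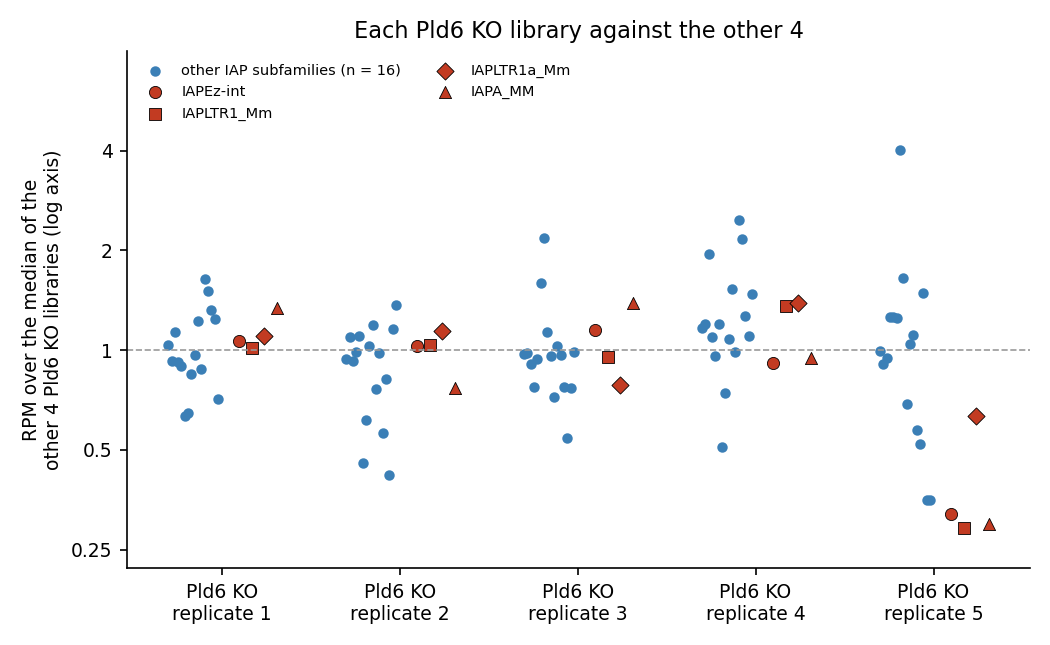
RPM in each *Pld6* KO library divided by the median of the other 4 *Pld6* KO libraries, on a log axis, for the 4 IAP sequences (red, 1 symbol each) and the 16 other IAP subfamilies (blue). In replicate 5, IAPEz-int, IAPLTR1_Mm and IAPA_MM lie between 0.290 and 0.321, while the other IAP subfamilies range from 0.353 to 4.02 with a median of 1.02.

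The other 4 *Pld6* KO libraries differed among themselves by sequence. Replicate 4 had the highest RPM of both LTRs, 1.36 times the median of the others for IAPLTR1_Mm and 1.38 times for IAPLTR1a_Mm, while IAPEz-int and IAPA_MM were at 0.912 and 0.948 there. In replicate 2, IAPA_MM was at 0.769 while the other 3 sequences were between 1.03 and 1.14.

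Over the 19 libraries, the sequences whose log2 RPM + 1 followed that of IAPEz-int most closely were IAPLTR1_Mm (Pearson r = 0.997), IAPA_MM (r = 0.996) and IAPLTR2b (r = 0.986). Those nearest to IAPLTR1_Mm were IAPEz-int (r = 0.997), IAPA_MM (r = 0.992) and IAPLTR2a (r = 0.986). IAPA_MM was followed by IAPEz-int (r = 0.996), IAPLTR1_Mm (r = 0.992) and IAPLTR2_Mm (r = 0.978). IAPLTR1a_Mm stood slightly apart, since the sequence nearest to it was IAPLTR3-int (r = 0.983), ahead of IAPLTR1_Mm (r = 0.980) and IAPLTR2a (r = 0.979). These correlations describe 19 libraries that fall into controls and 2 mutants, and much of each r is the split between them.

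Sequences outside the 4 that followed them closely were also up-regulated in both mutants. They were picked by correlation over the same libraries, and much of each r is the split between controls and mutants. A rise in both mutants was thus largely given by the choice, and the values here are a description only. IAPLTR2b had 1.36 ± 0.531 RPM in *Pld6* wild type (SD, n = 3), 20.9 ± 7.41 RPM in *Pld6* KO (SD, n = 5) and 93.7 ± 5.83 RPM in *Dnmt3l* KO (SD, n = 3). Its log2 fold changes were 3.14 in *Pld6* KO and 4.87 in *Dnmt3l* KO (limma adjusted p = 1.4e-07 and 6.7e-09). IAPLTR3-int had 0.327 ± 0.245, 4.39 ± 1.73 and 15.1 ± 2.40 RPM in the same 3 groups, and its log2 fold changes were 1.97 and 3.25 (limma adjusted p = 3.6e-06 and 9.3e-08).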

How the data were processed

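Poly(A) mRNA of EpCAM-positive P7 spermatogonia was sequenced by the authors as directional, single-end libraries of 50 bp reads, 1 mouse each. The authors mapped the reads with hisat2 to retrotransposon consensus sequences and deposited RPM, reads scaled to the mapped total, for each of 259 subfamilies. The submitters' processing notes name Trim Galore and the build mm10. The hisat2 settings, the treatment of reads matching several sequences and the reads in the RPM total are not given in the sources used here. Between 67.9% and 100% of a library's low RPM values fell close to a multiple of 1 step. Close meant within 0.0055 RPM plus a small allowance that grew with the multiple. Steps were as small as 0.0248 RPM, so part of the values would be that close by chance. Whole reads were thus not recovered, depth is unknown and no count model was used. Consensus sequences and their lengths were not used here.

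Groups came from the sample titles, which give 2 wild-type and 3 heterozygous *Dnmt3l* mice. The methods text gives these 2 numbers the other way round. The log2 of RPM + 1 was modelled with limma 3.58.1 (R 4.3.3, trended eBayes) on the 6 groups, all 19 libraries together and without covariates. Subfamilies entered if 2 or more libraries had an RPM of 1 or more, which 114 did. P-values were two-sided, Benjamini-Hochberg adjustment was done per comparison, and the threshold was 0.05. The limma p-values set a difference against the variation between libraries of 1 mouse each, with 1 estimate of spread shared by the 6 groups. Log2 ratios within a library were compared by two-sided exact permutation tests, adjusted over 12 tests. The limma step was tested on simulated data. By the rule for names, the 4 members and, for each, the 3 tested subfamilies most like it by Pearson r over 19 libraries are named, while other IAP subfamilies appear as counts. The members and lists were chosen with earlier results of these data known. Same-numbered mice of different groups are not paired by the labels. Alternatives were other pseudocounts, filters, scalings, limma settings and controls, a replicate block and each library left out. Permutation tests were run in scipy 1.17.1 under Python 3.11.15, tables were handled with pandas 2.3.3 and numpy 2.4.6, and plots drawn with matplotlib 3.10.9.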

Additional observations from a re-analysis of the deposited data

Results flagged for a closer look

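Groups of 3 or fewer libraries were not tested for a library that stands apart. Among the 5 *Pld6* KO libraries, 16 measures of the 4 IAP sequences were checked for a library whose gap to its neighbour exceeded Dixon's 95% critical value of 0.710 of the group's range, and 7 did. Chance alone gives about 1 in 20. In 6 of the 7 the library was replicate 5. Its gap was 0.767 of the range for the RPM of IAPEz-int, 0.923 for the share of IAPEz-int in all retrotransposon RPM, 0.898 for the share of the 4 sequences in it and 0.784 for their share in IAP RPM. It was 0.796 for the log2 ratio of IAPLTR1a_Mm to IAPLTR1_Mm and 0.846 for the part that the 4 sequences had in the net gain of summed RPM. These measures share the same reads and are not independent. In the remaining one, the gain of IAPLTR1_Mm as a percentage of the gain of IAPEz-int, the gap of 0.749 belonged to replicate 4.

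Changes that differed between the mutants by limma were those of IAPEz-int (2.44 on the log2 scale, *Dnmt3l* minus *Pld6*), IAPLTR1_Mm (2.19), IAPLTR1a_Mm (1.66) and IAPA_MM (2.75). Each KO was set against 3 *Pld6* or 2 *Dnmt3l* wild-type mice of its own line.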

How the results depend on the processing

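All 4 sequences stayed past the threshold in both comparisons of KO with wild type and in *Dnmt3l* KO against *Pld6* KO under every alternative run. In the difference between the mutants the one call lost was that of IAPLTR1_Mm without *Dnmt3l* wild-type replicate 2, and its value lay between 1.83 and 2.38 with a library left out. The lowest and highest log2 fold changes of IAPEz-int over the settings other than a left-out library were 3.35 and 4.24 in *Pld6* KO and 5.64 and 6.66 in *Dnmt3l* KO. Counts over all tested subfamilies moved more. In the difference between the mutants 9 were called larger in *Dnmt3l* KO, against 5 with a pseudocount of 0.1 and 14 with all controls of each line pooled.

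The labels do not say whether same-numbered mice share a litter or batch. Of same-numbered pairs of libraries within a line, 5 of 7 in *Dnmt3l* and 4 of 9 in *Pld6* deviated together with r over 0.1. The r ran from 0.04 to 0.55 in *Dnmt3l* and from -0.30 to 0.46 in *Pld6*. These values do not show whether the mice were paired, and the main fits did not take the numbers as pairs. The replicate number as a block leaves *Pld6* KO replicates 4 and 5 without a partner. With this block, 4 of 4 sequences were still called in each of these comparisons. For the ratios of LTR to internal region, 3 pairs allow no exact permutation p below 0.25. In *Dnmt3l* KO against wild type, which has fewer pairs, none below 0.5 was possible.

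Of the 12 tests of ratios, none passed 0.05 after adjustment, the lowest adjusted exact permutation p being 0.0857. Before adjustment, 5 had an exact permutation p under 0.05, against 3 with a pseudocount of 1 and 8 with pooled controls. For IAPLTR1_Mm over IAPEz-int in *Pld6* KO against wild type the log2 difference of 0.51 was 0.46 (exact permutation p = 0.0714) with a pseudocount of 0.1 and 0.081 with one of 1, which is of the size of the control RPM. In *Dnmt3l* KO against wild type it was -0.17 with a pseudocount of 1, and between -0.17 and 0.51 with a library left out. Between the mutants it was -0.00071 with a pseudocount of 1, and between -0.034 and 0.15 with a library left out. IAPA_MM over IAPEz-int in *Pld6* KO was 0.75 (exact permutation p = 0.0714) with a pseudocount of 1. In *Dnmt3l* KO it was 1.06 with a pseudocount of 1, 1.21 with heterozygous and 1.398 with pooled controls, and between 1.54 and 1.83 with a library left out. IAPLTR1a_Mm over IAPEz-int in *Dnmt3l* KO was -2.93 with a pseudocount of 1, and between -2.89 and -2.03 with a library left out. Over IAPLTR1_Mm it was -2.77 with a pseudocount of 1 and -2.81 with heterozygous controls. The causes were not tested.

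With IAP subfamilies alone as the denominator the mean share of IAPEz-int was 38.3%, 37.4% and 82.8% in *Dnmt3l* wild-type, heterozygous and KO and 38.7%, 39.3% and 70.0% in *Pld6* wild-type, heterozygous and KO libraries. The count of other IAP subfamilies with the larger change in *Dnmt3l* KO, 1, was 0 with a pseudocount of 0.1 or 0.5, no filter or either scaling, 2 with the groups compared alone, no trend or the replicate block, 4 with heterozygous or pooled controls, and 0 to 4 with a library left out. With the larger change in *Pld6* KO, 2 became 1 with a mean RPM of at least 5. Lower in *Dnmt3l* KO, 0 became 1 with median ratios. Higher in *Dnmt3l* KO than in *Pld6* KO, 8 became 4 with either scaling.

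Small uncalled differences turned sign. Against wild type, *Pld6* heterozygous libraries had 0.12 for IAPLTR1_Mm with either scaling, and 0.10 (median ratios) or 0.079 (sum of other families) for IAPA_MM. *Dnmt3l* heterozygous libraries had -0.000303 for IAPLTR1a_Mm with the sum of other families. Between wild types that scaling gave -0.71 for IAPEz-int, -0.28 for IAPLTR1_Mm and -0.32 for IAPLTR1a_Mm. With a library left out, the *Pld6* heterozygous values lay between -0.075 and 0.17 (IAPEz-int), -0.070 and 0.072 (IAPLTR1_Mm), -0.052 and 0.15 (IAPLTR1a_Mm) and -0.35 and 0.18 (IAPA_MM), the *Dnmt3l* heterozygous ones between -0.25 and 0.14 (IAPLTR1_Mm) and -0.16 and 0.31 (IAPLTR1a_Mm), and the wild-type difference of IAPA_MM between -0.43 and 0.11. The unknown depth limits all statements on the low RPM of the controls.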
